A study of Oryctolagus cuniculus with 30 samples.

Results

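Claudins, the other tight junction proteins and the desmosome proteins hold epithelial cells to one another, and their genes were followed here in rabbit vocal fold mucosa after injury and after injection of 3 hydrogels. The genes were taken by symbol alone (every numbered claudin, the desmocollins, desmogleins and plakophilins, the TJP genes, DSP, JUP, OCLN, MARVELD2, MARVELD3, F11R and CGN). The rule itself made no use of their values, though earlier results of these data were known when it was chosen. Among 31346 genes there were 42 members, namely 23 claudins, 4 other membrane proteins of the tight junction, 3 proteins of its cytoplasmic plaque, 7 desmosomal cadherins and 5 desmosomal plaque proteins. Among the genes counted none bore the symbol TJP3 or PKP3, so neither was analysed here. All 42 symbols were found in RefSeq mOryCun1.1, which served for names alone.

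Tight junctions seal the space between neighbouring epithelial cells. Claudins form their strands and set which ions pass, occludin, tricellulin and MARVELD3 are their membrane partners of the MARVEL domain family, and the ZO proteins and cingulin tie the strands to actin. Desmosomes carry mechanical load: desmogleins and desmocollins bridge the cells, and plakoglobin, plakophilins and desmoplakin anchor them to keratin filaments. The vibrating edge of the vocal fold bears a stratified squamous epithelium rich in desmosomes, and the neighbouring laryngeal surface bears ciliated and secretory epithelium with its own set of claudins.

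The study used New Zealand white rabbits in 5 groups with 3 animals each. The control group had neither injury nor injection. In the remaining groups both folds were stripped of their superficial mucosa, and 7 days later both received 20 µL of collagen type I (Col1), of one of 2 hydrogels labelled VFLP (man) and VFLP (au), or nothing (injury only). The study's title names vocal fold lamina propria as the source of the hydrogels, and the labels do not spell out the bracketed words. Tissue was taken 28 days after treatment. The labels do not say from which day this runs in the injury-only group, and give no separate time for controls.

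Each fold was a library of its own, 30 in all, with 14.2 to 31.9 M gene reads (median 22.7 M), and members held 0.0426% to 0.942% of these reads. All 6 control libraries and 5 of 6 injury-only libraries are labelled batch C, and the right fold of injury-only animal 1 and all libraries of the 3 materials batch D. Materials therefore cannot be told apart from batch in any comparison with control, and nearly so with injury only. Levels are CPM, read counts scaled to library size with TMM, with both folds of an animal summed. CPM takes no account of gene length, so levels are compared between animals and not between genes. Epithelial markers (CDH1, EPCAM, KRT8, KRT18, KRT19, KRT7, ELF3 and ESRP1) were present in every library, at a summed 223.7 to 3901 CPM. The tissue also held skeletal muscle RNA, most of all in controls: the 8 muscle markers in the tables summed to 14800, 35390 and 20330 CPM in the control animals and to 3320, 6620 and 6774 CPM in the injury-only animals.

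Of the 42 members 34 passed the filter on low counts and were tested. The 8 others had at most 70 reads over all 30 libraries. CLDN16, a renal claudin, had 0 reads, CLDN24 1, CLDN17 3, DSG4 4, CLDN18 6, CLDN20 28, CLDN19 36 and CLDN25 70. These 8 members are not described further.

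Control folds were far apart in the summed level of the members, with the left fold the higher in every control animal. Summed over the 42 members, the left and right folds measured 7863 and 4322 CPM in control animal 1, 3477 and 721.6 CPM in animal 2 and 7464 and 2455 CPM in animal 3. The left fold was thus 1.82, 4.82 and 3.04 times the right. In injury only the left fold was 0.695, 1.22 and 0.586 times the right, in Col1 0.677, 0.977 and 0.859 times, in VFLP (man) 1.11, 1.02 and 0.907 times and in VFLP (au) 1.32, 1.04 and 1.59 times.

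In the control libraries marker levels moved with side as well. The 8 muscle markers summed to 4540, 28700 and 12370 CPM in the left folds of controls and 27460, 44210 and 29850 CPM in the right folds, and the 8 endothelial markers to 120.7, 773.6 and 258.5 CPM and 360.7, 997.2 and 579.8 CPM. The 8 general epithelial markers went from 3225, 1856 and 2843 CPM on the left to 1785, 223.7 and 989.7 CPM on the right. Muscle markers differed by side in the other groups too. Their left fold was 8.94, 2.4 and 0.518 times the right in injury only and 5.8, 1.76 and 10.1 times in Col1. In VFLP (man) it was 0.585, 0.0428 and 0.0233 times and in VFLP (au) 0.427, 0.139 and 0.112 times. The part of these cell types in the difference between folds was not tested. In bulk tissue, fewer cells of a type and less RNA per cell cannot be told apart.

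**Figure D1:**
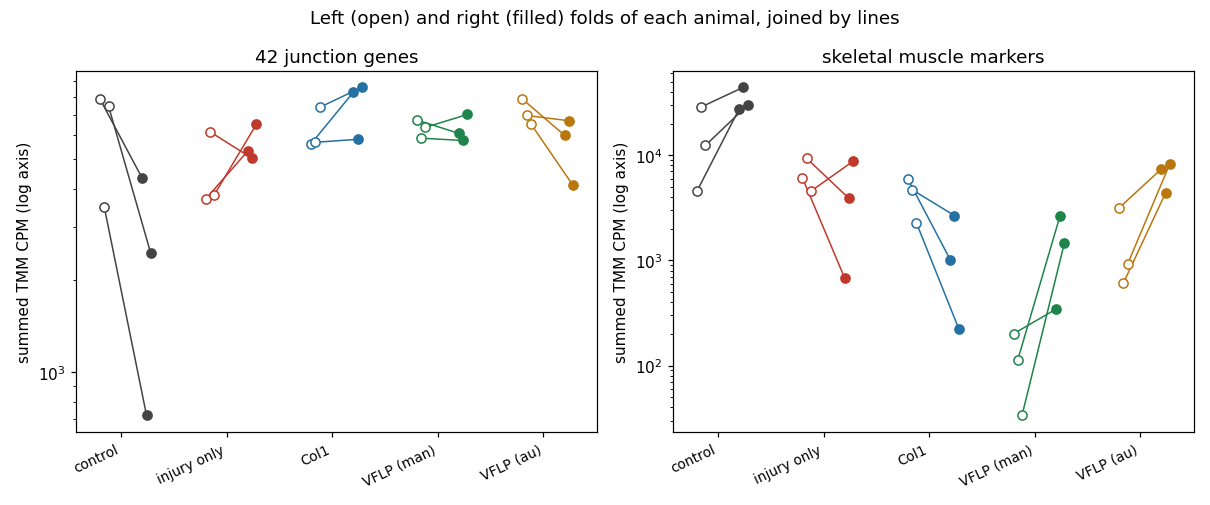
Summed CPM (log axes) of the 42 junction genes and of the 8 skeletal muscle markers in the left (open) and right (filled) fold of each animal, joined by a line. In all 3 control animals the junction genes are lower and the muscle markers higher on the right, while in injury only the junction genes are higher on the right in animals 1 and 3 and lower in animal 2.

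Injury only was first compared with control. The main fit took injury-only animal 1 by its left fold alone, of batch C, whereas its CPM values sum both folds. In edgeR's quasi-likelihood test with Benjamini-Hochberg adjustment over all 17815 genes tested, 5 of 34 members passed 0.05 (14.7%), against 22.1% of all genes. PKP2, MARVELD3 and CGN rose (3 of 34, against 8.33% of all genes), and CLDN11 and CLDN14 fell (2 of 34, against 13.7%). At an unadjusted p under 0.05 there were 8 of 34 members, against 36.8% of all genes. The median log2 fold change was 0.06 over the members and 0.02 over all genes, and 18 of 34 members had a positive value.

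PKP2, plakophilin 2, a desmosomal plaque protein of simple epithelia, cardiac muscle and basal layers, measured 18.2, 8.54 and 13.2 CPM in the control animals and 43.7, 36.0 and 38.7 CPM in the injury-only animals. Every injury-only animal was above every control animal, and the log2 fold change was 1.55 ± 0.28 (SE, adjusted p = 0.0036). MARVELD3, a membrane protein of the occludin family, was at 15.2, 6.76 and 12.8 CPM in control and at 24.2, 26.2 and 24.7 CPM in injury only. The injury-only animals lay close together and the groups did not overlap (log2 fold change 1.14 ± 0.23, adjusted p = 0.0064). CGN, cingulin, which links the tight junction plaque to actomyosin, was at 93.4, 46.5 and 77.4 CPM in control and at 139.8, 122.7 and 135.1 CPM in injury only. Its groups did not overlap either (log2 fold change 0.82 ± 0.21, adjusted p = 0.018).

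CLDN11, the claudin of myelin and of the Sertoli cell barrier, was at 10.2, 14.2 and 15.8 CPM in control and at 4.63, 2.69 and 2.79 CPM in injury only. All control animals were higher (log2 fold change -1.81 ± 0.56, adjusted p = 0.036). CLDN14, known from the inner ear and kidney, was scarce, at 0.848, 2.19 and 1.57 CPM in control and 0.271, 0.189 and 0.399 CPM in injury only, from 144 and 39 reads. The groups did not overlap (log2 fold change -2.18 ± 0.53, adjusted p = 0.014). For CLDN14, 40.9% of reads counted by strand lay on the opposite strand, and these were not part of the values given.

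Without control animal 2 the adjusted p was 0.089 for CLDN11 and 0.058 for CLDN14, leaving 3 members called (against 9.53% of all genes). Without injury-only animal 3 the adjusted p was 0.11 for CLDN11 and 0.05, just above the threshold, for CGN, again leaving 3 called (against 15.6% of all genes). CLDN11 also missed it without control animal 3 (0.084) or injury-only animal 2 (0.11), and CGN, just above the threshold, without injury-only animal 1 (0.05).

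**Figure D2:**
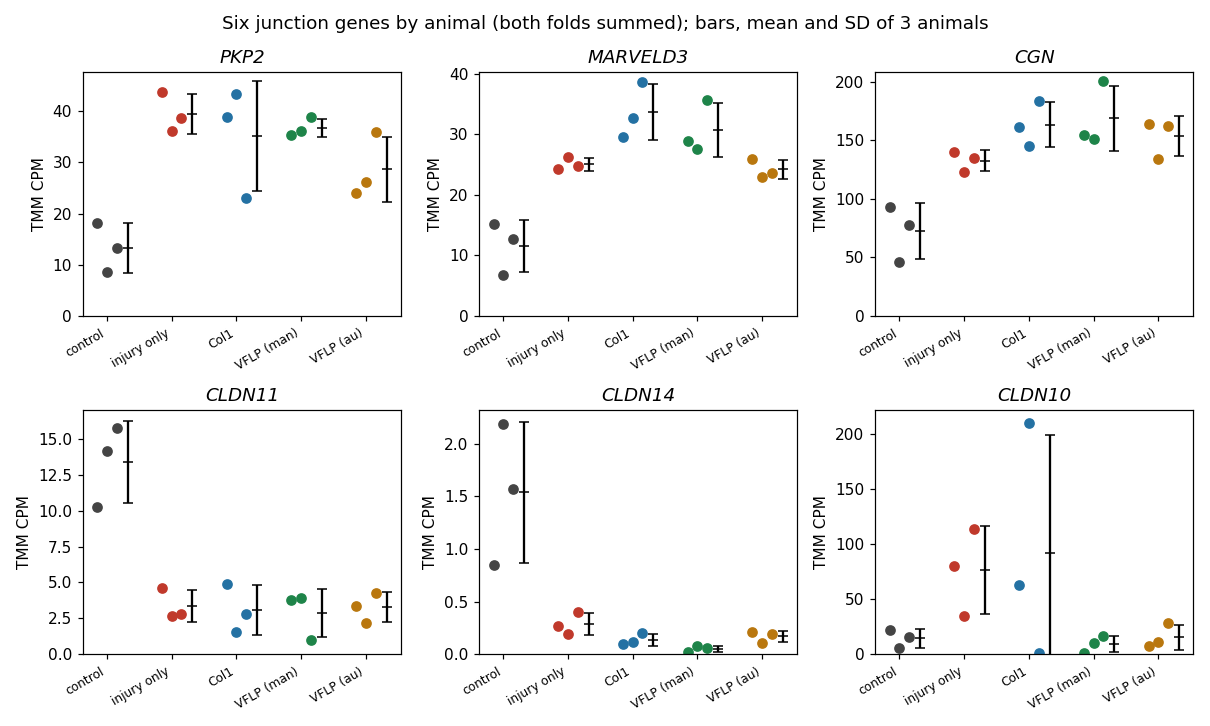
TMM-scaled CPM (vertical axes, linear) of PKP2, MARVELD3, CGN, CLDN11, CLDN14 and CLDN10 in each of 3 animals in each of 5 groups (points), with the mean and SD beside them. PKP2, MARVELD3 and CGN are higher and CLDN11 and CLDN14 lower in the injury-only animals than in all 3 controls, while CLDN10 ranges from 1.54 to 211 CPM within Col1.

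By role, the remaining members did not pass the test in this comparison. Among the claudins 0 of 16 rose and 2 fell, with a median log2 fold change of 0.12 and 9 of 16 positive. CLDN4 and CLDN7, claudins of many lining epithelia, averaged 183.7 ± 48.9 and 214.4 ± 96.2 CPM in control (SD, n = 3) and 250.9 ± 104 and 241.7 ± 28.6 CPM in injury only. CLDN1, the barrier claudin of stratified epithelium, averaged 29.1 ± 13.6 and 19.2 ± 6.48 CPM. CLDN3 was at 9.63, 12.1 and 30.2 CPM in control and 47.2, 30.8 and 35.9 CPM in injury only, with an adjusted p of 0.092. Its groups lay apart by a small margin, between control animal 3 and injury-only animal 2.

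All 4 membrane partners had positive log2 fold changes, with a median of 0.47, and MARVELD3 alone passed. OCLN (occludin) averaged 139.2 ± 39.8 CPM in control and 160.7 ± 11.9 CPM in injury only. F11R, the junctional adhesion molecule JAM-A, averaged 216.6 ± 64.7 and 298.1 ± 35.9 CPM, and MARVELD2, tricellulin, 18.8 ± 6.89 and 27.3 ± 3.59 CPM. In the plaque, TJP1, the ZO-1 scaffold, averaged 161.1 ± 26.3 CPM in control and 125.3 ± 25.2 CPM in injury only, with a log2 fold change of -0.42 ± 0.23 (adjusted p = 0.21). Its groups overlapped.

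No desmosomal cadherin passed: 0 of 6 by edgeR, with 1 of 6 at an unadjusted p under 0.05 and 1 (DSG2, adjusted p = 0.033) by DESeq2, and 5 of 6 had a negative log2 fold change (median -0.44). DSG1, DSG3 and DSC1 mark the stratified layers and DSG2 simple and basal epithelium. DSG1 was at 566, 139 and 533 CPM in control and 250, 406 and 321 CPM in injury only, so that control animal 2 was lowest and controls 1 and 3 highest. DSG2 was at 194.8, 71.8 and 140.4 CPM in control and 287, 240.5 and 217.7 CPM in injury only, with a log2 fold change of 0.88 ± 0.30 and an adjusted p of 0.055. Its groups did not overlap. Over all roles, the injury-only animals lay above every control in 9 of 34 members, against 20.5% of all genes, and below every control in 2 of 34, against 21.9%. In the same comparison 7 of 8 muscle markers, 4 of 8 fibroblast and 3 of 8 endothelial markers fell, and 3 of 7 secretory, 2 of 7 ciliated and 2 of 8 general epithelial markers (KRT8 and KRT18, of simple epithelium) rose. The part of these cell types in the members' values was not tested beyond 2 covariate fits, of epithelial and of muscle level.

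Right folds were compared with left folds within animals, a comparison added after the data were seen, over 28 libraries of 14 animals (injury-only animal 1 was left out because its folds lie in different batches). In control, 25 of 34 members passed the threshold by edgeR (against 30.4% of all genes; 28 at an unadjusted p under 0.05, against 42.1%), 23 lower and 2 higher on the right, with a median log2 fold change of -1.71 over members and -0.01 over all genes. In injury only 0 of 34 passed (1 at an unadjusted p under 0.05; 0% and 3.86% of all genes), and in Col1, VFLP (man) and VFLP (au) 0, 0 and 0 (0, 0 and 2 at an unadjusted p under 0.05; 0%, 0% and 0% of all genes passed, and 8.95%, 3.23% and 9.57% at an unadjusted p under 0.05). DESeq2 was not run for these. Without 1 control animal, 17 to 21 members passed in control.

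The lower right folds of controls took in every role. MARVELD2 fell from 27.2, 15.4 and 34.4 CPM on the left to 11.7, 4.42 and 11.6 CPM on the right, F11R from 358.8, 199 and 289.4 CPM to 203.2, 52.3 and 123.7 CPM, and DSP, desmoplakin, from 1595, 655.1 and 1349 CPM to 822.3, 75.7 and 369.7 CPM. The right fold was lower in all 3 control animals for each of these. The log2 fold changes were -1.52 ± 0.20 for MARVELD2 (adjusted p = 0.00084), -1.33 ± 0.18 for F11R (0.00087) and -1.98 ± 0.37 for DSP (0.0037). CLDN5, the endothelial claudin, and CLDN6 went the other way. CLDN5 measured 4.10, 17.6 and 7.17 CPM on the left and 12.4, 23.4 and 20.1 CPM on the right (log2 fold change 1.16 ± 0.29, adjusted p = 0.012). The right fold was the higher in each control animal.

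The side difference itself was compared between injury only and control, and not for the other groups. Injury only minus control, 16 of 34 members passed, all with a positive value (against 13.4% of all genes; 26 at an unadjusted p under 0.05, against 32%), with a median log2 difference of 1.85 over the members and 0.01 over all genes. Among them were CLDN8 (2.40 ± 0.45, adjusted p = 0.014), a claudin of tight, ion-sealing epithelia, OCLN (1.91 ± 0.39, 0.016) and F11R (1.29 ± 0.27, 0.019). With 2 injury-only animals in this fit the count was 5 without control animal 3, 9 without control animal 2 and 20 without control animal 1, and 10 with no filter on low counts.

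**Figure D3:**
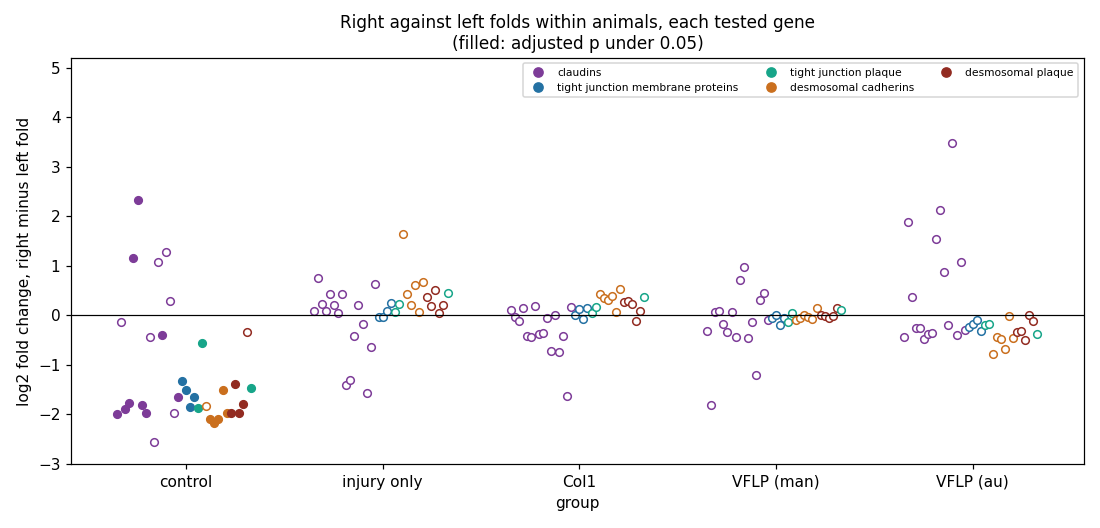
Log2 fold change of the right against the left fold within animals (vertical axis) for each of the 34 tested members in 5 groups, coloured by role and filled where the adjusted p was under 0.05. In control 23 members lie below 0 and 2 above it with filled symbols, and in the other 4 groups none is filled.

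The comparison of injury only with control depended on the side used. With left folds alone, all of batch C, 0 of 34 members passed by edgeR (9 at an unadjusted p under 0.05; 0% of all genes passed) and the median log2 fold change was -0.19. With right folds alone 10 members passed (8 higher and 2 lower, against 26.2% of all genes) and the median was 1.17. The right fold of injury-only animal 1 was of batch D and the other right folds compared of batch C, so the sides were not tested alike. PKP2 had a log2 fold change of 1.12 on the left (adjusted p = 0.15) and 2.60 ± 0.60 on the right (0.011). CLDN11 had -1.17 on the left (adjusted p = 0.25) and -2.996 ± 0.81 on the right (0.022). Both kept their sign on each side.

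With the level of 5 epithelial genes (CDH1, EPCAM, ESRP1, TP63 and KRT5) in the model, 8 members passed (against 16.9% of all genes). MARVELD3 (log2 fold change 0.98 ± 0.15, adjusted p = 0.0026), PKP2 (1.46 ± 0.27, 0.0065) and CGN (0.67 ± 0.14, 0.011) were again higher. CLDN11 no longer passed (-1.75, adjusted p = 0.064). CLDN14 was again lower, joined by the desmosomal genes DSC2 (-0.71 ± 0.18, adjusted p = 0.021), JUP, plakoglobin (-0.44 ± 0.12, 0.029), DSG1 (-0.79 ± 0.22, 0.035) and DSC1 (-1.35 ± 0.40, 0.04). The epithelial level was 7.23 to 8.72 log2 CPM in controls and 8.51 to 8.62 in injury only. With the muscle level as the covariate 0 members passed (8 at an unadjusted p under 0.05; 0.825% of all genes passed), with a median of -0.36 and 12 of 34 positive. PKP2 then had a log2 fold change of 1.63 (adjusted p = 0.062) and CLDN11 one of -1.69 (0.22). The muscle level did not overlap between these groups (10.6 to 11.7 and 8.14 to 9.19 log2 CPM), so muscle level and injury cannot be told apart here.

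The materials were then compared with injury only, whose animals had no injection. Material and the act of injection cannot be told apart in this comparison, and batch nearly coincides with both. No member passed in Col1, VFLP (man) or VFLP (au): 0, 0 and 0 of 34 by edgeR, with 7, 4 and 3 at an unadjusted p under 0.05, against 0%, 1.06% and 0% of all 17770 genes tested that passed and 14.2%, 17.2% and 12.9% at an unadjusted p under 0.05. In VFLP (man) 0.0732% of all genes were higher and 0.99% lower. DESeq2 called 0, 2 and 0 of the 41 members it covered, against 1.37%, 4.84% and 0.614% of all genes it covered. The members' median log2 fold changes were 0.38, 0.27 and 0.19, against 0.00, 0.00 and 0.01 over all genes, and 25, 24 and 22 of 34 members were positive. For VFLP (man) this direction turned with the muscle level as a covariate, to a median of -0.12 with 10 of 34 positive. The 3 comparisons share the injury-only animals.

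In Col1 the smallest p values belonged to PKP1, plakophilin 1 of the suprabasal layers, JUP and CLDN15, a cation-pore claudin. PKP1 was at 285.7, 365.6 and 379.1 CPM in injury only and 682, 421.1 and 776.1 CPM in Col1, with no overlap (log2 fold change 0.87 ± 0.28, adjusted p = 0.28). JUP was at 423, 415.4 and 406.5 CPM in injury only and 781.6, 565.5 and 830.2 CPM in Col1 (0.81 ± 0.27, adjusted p = 0.29). CLDN15 was at 0.116, 0.259 and 0.0704 CPM and 0.303, 0.313 and 1.13 CPM (1.96 ± 0.68, adjusted p = 0.29). For each of these every Col1 animal was above every injury-only animal, as it was for 12 of 34 members (against 12.1% of all genes), with 2 of 34 below (against 10.8%).

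In VFLP (man) the smallest p values were those of CLDN14, CLDN2 and CLDN10. CLDN14 was at 0.0173, 0.0752 and 0.0638 CPM, all below the injury-only animals, from 10 reads in the group (log2 fold change -2.38 ± 0.57, adjusted p = 0.065 by edgeR and 0.012 by DESeq2). CLDN2, the claudin of leaky, secretory epithelia, was at 1.09, 4.67 and 1.103 CPM in injury only and 0.121, 0.376 and 0.112 CPM in VFLP (man), from 301 and 39 reads (-3.47 ± 0.95, adjusted p = 0.097 by edgeR and 0.0034 by DESeq2). CLDN10, an ion-pore claudin of secretory epithelium and kidney, was at 80.6, 34.8 and 114 CPM and 1.19, 10.1 and 16.3 CPM (-3.06 ± 1.28, adjusted p = 0.25). None of these groups overlapped. VFLP (man) lay above injury only in 11 of 34 members and below it in 4 (against 11.6% and 13.2% of all genes).

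In VFLP (au) the smallest p values were those of CLDN2, PKP1 and JUP. CLDN2 was at 0.314, 0.111 and 0.586 CPM, below the injury-only animals (log2 fold change -2.77 ± 0.92, adjusted p = 0.35). PKP1, at 672.1, 687.2 and 489.5 CPM, and JUP, at 713.1, 705.3 and 521.7 CPM, were above them (0.84 ± 0.28 and 0.64 ± 0.27, adjusted p = 0.35 and 0.37). Above every injury-only animal were 10 of 34 members and below 5 (against 12.8% and 9.03% of all genes). The desmosomal cadherins had medians of 0.60, 0.60 and 0.59 in Col1, VFLP (man) and VFLP (au), with 5 of 6 positive each time and 0 of 6 at an unadjusted p under 0.05. The 10 suprabasal squamous markers (among them KRT4, KRT13 and TGM1) had medians of 0.70, 0.55 and 1.11 in the same comparisons, with 9, 10 and 9 of 10 positive, 0 of 10 past the threshold by edgeR and 5, 1 and 5 at an unadjusted p under 0.05. They summed to 16420, 18740 and 19950 CPM in injury only, 24590 to 33490 CPM in Col1, 18930 to 35960 CPM in VFLP (man) and 21190 to 31110 CPM in VFLP (au), and their part in the values of the desmosomal cadherins, PKP1 and JUP was not tested.

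Between materials 0 of 34 members passed in each of 3 comparisons by edgeR and by DESeq2. At an unadjusted p under 0.05 there were 2, 0 and 1 members for VFLP (man) against Col1, VFLP (au) against Col1 and VFLP (man) against VFLP (au), against 10.3%, 4.65% and 8.36% of all genes, and 0%, 0% and 0.0505% of all genes passed by edgeR. By DESeq2 1.53%, 0.151% and 1.54% of all genes passed. VFLP (man) lay above Col1 in 0 members and below it in 2 (against 6.71% and 8.29% of all genes), VFLP (au) above Col1 in 0 and below it in 2 (4.82% and 4.56%), and VFLP (man) above VFLP (au) in 2 and below it in 2 (5.09% and 9.22%). For VFLP (man) against Col1 the smallest p values were those of CLDN10 (log2 fold change -3.32 ± 1.30, adjusted p = 0.4), CLDN14 (-1.35 ± 0.59, 0.47) and CLDN9 (-1.80 ± 0.86, 0.5). For VFLP (au) against Col1 they were those of MARVELD3 (-0.48 ± 0.23), CLDN10 (-2.57 ± 1.25) and CLDN9 (-1.63 ± 0.86), each with an adjusted p of 0.99. For VFLP (man) against VFLP (au) they were those of CLDN14 (-1.65 ± 0.59, adjusted p = 0.41), CLDN3 (1.01 ± 0.49, 0.63) and MARVELD3 (0.34 ± 0.23, 0.76). CLDN10 ranged over 1.54 to 211 CPM in Col1, wider than any gap between the group means.

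Against control, which cannot be told apart from batch here, 10 members passed in Col1 (8 higher and 2 lower, against 13.5% and 18.6% of all genes). In VFLP (man) 12 passed (9 higher and 3 lower, against 16.7% and 20.5%), and in VFLP (au) 8 (5 higher and 3 lower, against 10.8% and 16.7%). In both directions together 29.4%, 35.3% and 23.5% of members passed, against 32.1%, 37.3% and 27.5% of all genes. At an unadjusted p under 0.05 there were 16, 14 and 13 members, against 43.2%, 47.4% and 40.5% of all genes. Every animal of the material lay above every control in 10, 13 and 11 members (against 22.8%, 24.6% and 20.8% of all genes) and below in 2, 4 and 3 (against 23%, 24.1% and 21.9%). Members' median log2 fold changes were 0.62, 0.44 and 0.40, against 0.12, 0.13 and 0.11 over all genes, so values here are to be read relative to that shift. PKP2, MARVELD3, CGN, CLDN11 and CLDN14 passed in the same direction in all 3 and in injury only, and F11R and MARVELD2 rose in all 3 materials. These comparisons share the control animals, including the low right folds. The muscle markers summed to 1219 to 3685 CPM in Col1, 268.5 to 1476 in VFLP (man) and 2216 to 5344 in VFLP (au), all below the controls, and the part of muscle in these differences was not tested.

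Of the 4 membrane partners of the tight junction 4 rose in Col1, 4 in VFLP (man) and 3 in VFLP (au), against 13.5%, 16.7% and 10.8% of all genes. General epithelial markers rose in the same comparisons, 5, 5 and 2 of 8 with 8 of 8 positive each time, and summed to 2470, 1281 and 2109 CPM in control and 2357 to 3902 CPM in the materials. Their part in the members' values was not tested. MARVELD3 averaged 11.6 ± 4.32 CPM in control (SD, n = 3), 33.7 ± 4.63 in Col1, 30.7 ± 4.41 in VFLP (man) and 24.2 ± 1.60 in VFLP (au), with log2 fold changes of 1.54 ± 0.24, 1.40 ± 0.23 and 1.06 ± 0.23 (SE, adjusted p = 0.00074, 0.00072 and 0.0069). F11R averaged 216.6 ± 64.7 CPM in control and 402.9 ± 66.6, 360.7 ± 54.5 and 358.2 ± 38.6 CPM in the materials (adjusted p = 0.0079, 0.018 and 0.026). MARVELD2 averaged 18.8 ± 6.89 CPM and 33.9 ± 5.49, 31.6 ± 3.49 and 29.8 ± 2.60 CPM (adjusted p = 0.015, 0.023 and 0.05, the last just under the threshold). OCLN averaged 139.2 ± 39.8 CPM and 247.8 ± 63.6, 218 ± 19.5 and 214.5 ± 37.3 CPM (adjusted p = 0.014, 0.039 and 0.056). For all 4 genes every animal of each material was above every control animal.

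In the plaques, CGN averaged 163.2 ± 19.3, 168.9 ± 27.7 and 153.5 ± 17.01 CPM in Col1, VFLP (man) and VFLP (au), against 72.4 ± 23.9 CPM in control (log2 fold changes 1.17 ± 0.21, 1.22 ± 0.22 and 1.08 ± 0.21, adjusted p = 0.0019, 0.001 and 0.0041). PKP2 averaged 35.1 ± 10.7, 36.7 ± 1.81 and 28.6 ± 6.36 CPM against 13.3 ± 4.84 CPM (1.40 ± 0.28, 1.46 ± 0.28 and 1.101 ± 0.28, adjusted p = 0.0029, 0.0016 and 0.012). Both genes were higher in every animal of every injured group than in any control. TJP1, DSP, PKP4 and the 6 desmosomal cadherins passed in none of the 3 by edgeR or DESeq2 (of the cadherins 0, 1 and 0 at an unadjusted p under 0.05 by edgeR). DESeq2 called 14, 13 and 10 of the 41 members it covered, against 26.5%, 30.8% and 23.6% of all genes. Among them were PKP1 and JUP in Col1 (adjusted p = 0.046 and 0.043 by DESeq2). TJP1 averaged 161.1 ± 26.3 CPM in control and 138.2 to 154.1 CPM in the materials, and DSP 867.3 ± 379.6 CPM and 1198 to 1276 CPM.

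The claudins divided. CLDN4 rose in Col1, from 216, 127.5 and 207.7 CPM in control to 440.9, 338.3 and 706.2 CPM (log2 fold change 1.43 ± 0.34, adjusted p = 0.0078), and its groups did not overlap. CLDN8 rose in Col1 and VFLP (man), with means of 12.0 ± 6.40 and 12.0 ± 2.45 CPM against 4.75 ± 1.97 CPM (adjusted p = 0.039 and 0.034). In Col1 its lowest animal, at 6.64 CPM, lay below control animal 1, at 6.86 CPM. CLDN3 and CLDN12 rose in VFLP (man). CLDN12, at 19.5, 20.1 and 19.8 CPM in control, was at 27.2, 28.2 and 22.3 CPM there (0.39 ± 0.12, adjusted p = 0.023), and CLDN3 was at 31.4, 43.3 and 56.6 CPM (1.34 ± 0.48, adjusted p = 0.045).

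CLDN11, CLDN14 and CLDN5 fell. CLDN11 averaged 3.07 ± 1.72, 2.88 ± 1.65 and 3.29 ± 1.06 CPM in Col1, VFLP (man) and VFLP (au), against 13.4 ± 2.86 CPM in control (log2 fold changes -2.12 ± 0.54, -2.22 ± 0.54 and -2.03 ± 0.53, adjusted p = 0.01, 0.007 and 0.016). Nerve and Schwann cell markers fell in the same comparisons (2, 3 and 3 of 6), from a summed 57.8, 97.7 and 121.5 CPM in control. They summed to 26.2 to 89.3 CPM in Col1, 14.5 to 42.2 CPM in VFLP (man) and 16.7 to 38.0 CPM in VFLP (au). Other lists fell there too. By DESeq2 these were 8, 8 and 6 of 8 fibroblast, 8, 8 and 8 of 8 muscle and 6, 8 and 8 of 8 endothelial markers. The part of any of these cell types in the CLDN11 values was not tested. CLDN14 had log2 fold changes of -3.43 ± 0.55, -4.79 ± 0.59 and -3.14 ± 0.54 (adjusted p = 0.00093, 0.00012 and 0.0023), from 20, 10 and 24 reads against 144. CLDN5 was at 7.73, 20.3 and 13.0 CPM in control and fell in VFLP (man), to 4.58, 6.74 and 7.50 CPM, and in VFLP (au), to 5.48, 6.96 and 4.25 CPM (-1.12 ± 0.39 and -1.30 ± 0.39, adjusted p = 0.038 and 0.028). Every animal of these 2 groups was below every control. Endothelial markers fell with it (8 of 8 tested in both), from 225.9, 879.7 and 405.7 CPM summed in control to 68.3 to 100.4 CPM in VFLP (man) and 83.1 to 168.3 CPM in VFLP (au), and their part in the CLDN5 values was not tested.

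Control animal 2 carried part of these calls. Without it 5 members passed in VFLP (man) and 4 in VFLP (au). The share of all genes that passed fell as well, from 37.3% to 24.5% in VFLP (man) and from 27.5% to 13.9% in VFLP (au). In VFLP (man) without control animal 2 F11R, MARVELD2, OCLN, CLDN3, CLDN5, CLDN8 and CLDN12 no longer passed (adjusted p = 0.064, 0.068, 0.14, 0.16, 0.18, 0.11 and 0.066). Without its right fold alone CLDN8 no longer passed in Col1 and VFLP (man) (adjusted p = 0.075 and 0.067), nor CLDN3 in VFLP (man) (0.064). In VFLP (au) without control animal 2 PKP2, F11R, MARVELD2 and CLDN5 no longer passed (adjusted p = 0.061, 0.1, 0.18 and 0.13). VFLP (man) also had 6 members without its own animal 3 (against 29.9% of all genes). VFLP (au) had 5 without any 1 of its own animals (against 19.6%, 16.8% and 20.9% of all genes without animals 1, 2 and 3).

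**Figure D4:**
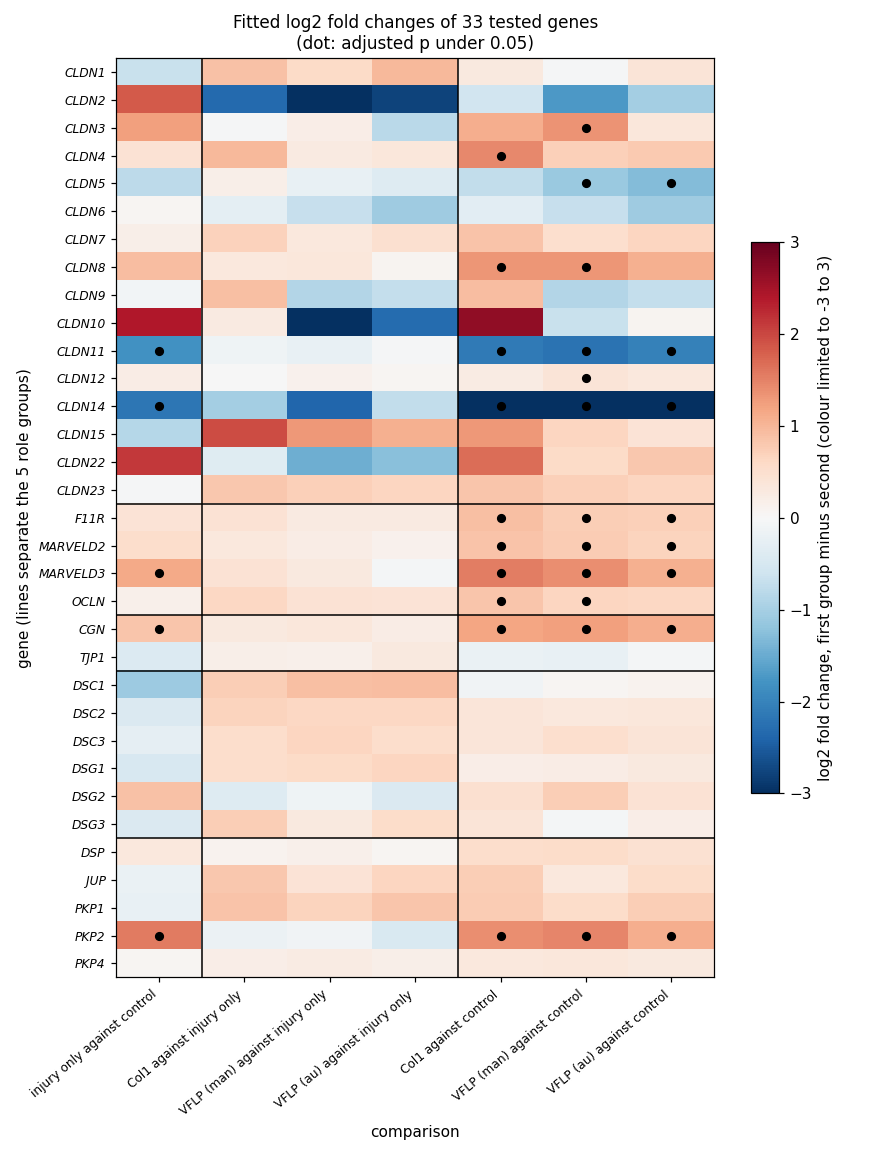
Fitted log2 fold changes (colour, limited to -3 to 3) of 33 of the 34 tested members (rows, by role) in 7 comparisons (columns), with a dot where the adjusted p was under 0.05. Dots lie on 5 members for injury only against control, on none for the materials against injury only, and on 10, 12 and 8 for Col1, VFLP (man) and VFLP (au) against control.

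CLDN10, CLDN2 and CLDN22 differed widely between the folds of some animals. In injury-only animal 2, CLDN10 was at 5.21 CPM in the left and 67.3 CPM in the right fold, CLDN2 at 0.323 and 9.44 CPM, and CLDN22 at 1.11 and 14.1 CPM. In animal 3 the left fold was the high one: CLDN10 was at 263 and 3.15 CPM, CLDN2 at 2.36 and 0.171 CPM and CLDN22 at 14.1 and 0.341 CPM in the left and right folds. DSG1 went the other way in both animals, at 523.8 and 289.8 CPM in animal 2 and 116.2 and 492.9 CPM in animal 3. The 7 secretory and gland markers in the tables (among them AGR2, WFDC2 and BPIFB1) were high in the same folds as the 3 claudins, at a summed 1824 and 29120 CPM in animal 2 and 55460 and 643 CPM in animal 3. The 7 ciliated markers followed, at 58.1 and 616.5 CPM and 306.8 and 7.25 CPM.

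VFLP (au) animal 3 had the same arrangement, with CLDN10 at 4.25 and 55.0 CPM, CLDN22 at 2.20 and 12.0 CPM and the secretory markers at 3355 and 30100 CPM in the left and right fold. Col1 animal 3 did not: CLDN10 was at 1.00 and 1.95 CPM beside secretory markers of 8341 and 5845 CPM. Between groups the secretory markers summed to 4432, 421.1 and 5492 CPM in control and 25330, 14830 and 24080 CPM in injury only. The part of secretory tissue in the CLDN10, CLDN2 and CLDN22 values was not tested. CLDN22 had 86.5% of its stranded reads on the opposite strand, and its unstranded count was 0.

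**Figure D5:**
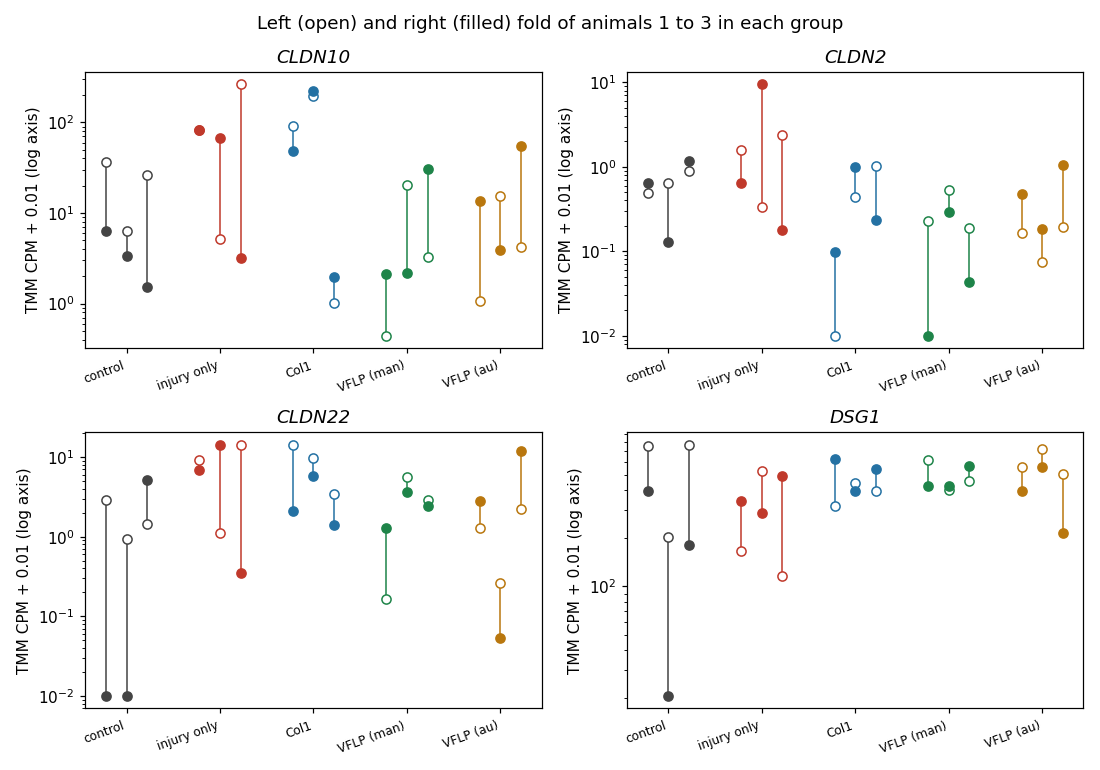
CPM plus 0.01 (log axes) of CLDN10, CLDN2, CLDN22 and DSG1 in the left (open) and right (filled) fold of animals 1 to 3 in each of 5 groups. In injury only the 3 claudins are high in the right fold of animal 2 and the left fold of animal 3, where DSG1 is the lower of the pair.

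Other junction genes were read from lists of the same kind. Of 10 adherens junction and nectin genes 0 passed in injury only against control by edgeR (0 at an unadjusted p under 0.05, 0 by DESeq2), with 9 of 10 positive and a median log2 fold change of 0.17. Of 15 polarity and further tight junction genes 5 rose and 2 fell (against 8.33% and 13.7% of all genes): MAGI1, a scaffold, rose (0.56 ± 0.12, adjusted p = 0.0068), as did PRKCZ, an atypical protein kinase C of the polarity complex (1.67 ± 0.41, 0.014), and JAM3, an adhesion molecule also of endothelium and muscle, fell (-1.59 ± 0.31, 0.0054). Of 4 desmosome partners (PERP, CDSN, PPL and EVPL) 0 passed by edgeR (0 at an unadjusted p under 0.05, 0 by DESeq2). Of 12 epithelial transcription and splicing regulators 1 rose, GRHL2, a grainyhead factor known to drive junction genes (1.25 ± 0.24, adjusted p = 0.005), and 9, 8 and 9 of 12 rose in Col1, VFLP (man) and VFLP (au) against control (13.5%, 16.7% and 10.8% of all genes rose), where 5, 5 and 2 of 8 general epithelial markers rose too. ELF3 and ESRP1 belong to both of these lists, so the counts are not independent.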

How the data were processed

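Both vocal folds of 15 rabbits were profiled by mRNA sequencing (KAPA mRNA HyperPrep, paired-end, per the labels' protocols). The deposited values are raw read counts per gene made by the authors with STAR 2.7.10b, per the submitters' processing notes, with no normalization. The sources used here do not name a genome build or annotation. A table gives each gene's reads without strand and on either strand. The column for the second read's strand was analysed (97.6% to 99.9% of the unstranded total), and entries that name no gene (23.2% to 44.7% of reads) were left out.

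Folds of an animal were summed. Tests used R 4.3.3 and edgeR 4.0.16 (quasi-likelihood F test, TMM, filterByExpr at a minimum count of 10, Benjamini-Hochberg adjustment over all genes tested, threshold 0.05), with all 5 groups sharing the spread. Injury only against control and comparisons between materials used 16 units with batch as a term, injury-only animal 1 being divided by batch. The right fold of that animal alone sets the batch term. It therefore carries no weight in injury only against control, where that animal enters by its left fold. Materials against injury only and against control used 15 animals without a batch term. SE is the absolute log2 fold change over the square root of F. With 3 animals a group, p values rest on the spread within all 5 groups, drawing also on that of other genes, and not on the compared animals alone. On simulated data (injury only against control, 17815 genes, 200 changed) 22% of changes of 2-fold and 48% of 4-fold were recovered. In the data 3933 genes passed in that comparison. The adjustment depends on how many genes change, so this recovery need not hold for the data. Alternatives were DESeq2 1.42.0, its size factors, no filter, unstranded counts, each fold alone, each animal left out, the replicate number as a block, batch handled the other way, and epithelial or muscle level as a covariate. Materials against control were not run with each fold alone, batch handled the other way or a covariate.

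Members, role groups, other lists and the naming rule were chosen with earlier results of these data known. The rule names members past the threshold (up to 8 in each direction by smallest p, or the 3 of smallest p where fewer than 3 passed). It also sets a panel of 30 junction genes to be described by level. Of these 28 were among the genes counted, and the levels of some are given for some groups only or not at all. The members that did not pass the filter, CLDN3 against control in VFLP (man), CLDN2 and CLDN22 by fold and the genes of the side comparison were chosen after their values were seen. The comparison of right with left folds and the removal of the right fold of control animal 2 were added after the data were seen. The values of 1 member are not reported here, though it stays in all counts and medians.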

Additional observations from a re-analysis of the deposited data

Results flagged for a closer look

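Over 170 sets of 6 libraries (34 members in 5 groups), 6 single libraries of 5 members lay apart from the 5 others of their group by a limit that chance passes in about 1 in 20 sets, or 8.5 of 170, so that their number is no more than chance gives. CLDN10 was at 263 CPM in the left fold of injury-only animal 3 (3.15 to 82.0 CPM in the others) and at 55.0 CPM in the right fold of VFLP (au) animal 3 (1.05 to 15.5 CPM). CLDN2 was at 9.44 CPM in the right fold of injury-only animal 2 (0.171 to 2.36 CPM). CLDN22 was at 12.0 CPM in the right fold of VFLP (au) animal 3 (0.0437 to 2.76 CPM). JUP was low, at 393.5 CPM, in the same right fold of VFLP (au) animal 3 (626.8 to 743.7 CPM). CLDN14 was at 0.334 CPM in the left fold of Col1 animal 3 (0.0751 to 0.147 CPM).

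The right-minus-left difference was larger in injury only than in control for 16 members, 15 of them given here, by edgeR's test of the difference itself on the log2 scale. The tight junction members were CLDN8 (2.40), CLDN1 (2.08), CGN (1.95), MARVELD3 (1.93), OCLN (1.91), CLDN7 (1.85), MARVELD2 (1.48), F11R (1.29) and CLDN12 (0.60). The desmosomal members were DSC1 (3.48), DSC2 (2.53), DSC3 (2.38), DSP (2.35), DSG2 (1.58) and JUP (1.58).

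On the strand opposite to the one counted, CLDN22 had 11.3 to 19.8 reads, scaled as CPM to all gene reads, in the control animals and 21.8 to 34.1 in the injured animals, higher in 12 of 12 than in any control. MARVELD3 had at most 0.983 opposite-strand reads on the same scale in the control animals and 2.13 to 4.86 in the injured animals, again higher in 12 of 12. Neither was tested.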

How the results depend on the processing

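Where the reported count of called members was above 0, 50 of 65 recomputed counts stayed within 1.5 times it. Reported counts of 0 have no room to fall, and 3 of 108 recomputed ones were above 0. For injury only against control (5 reported) the count was 0 with left folds alone and 10 with right folds alone, where that of injury-only animal 1 was of batch D. The count was 8 with the epithelial level and 0 with the muscle level as a covariate. For VFLP (man) against injury only (0 reported) it was 2 with DESeq2, 1 with unstranded counts (CLDN14, -3.12, adjusted p = 0.044) and 1 with left folds alone (DSC1, 2.09, adjusted p = 0.042). In these 3 settings 4.84%, 0.936% and 4.28% of all genes passed. For the right-left difference, injury only minus control (16 reported), the count was 10 with no filter. Leaving out 1 animal gave 3 to 7 for injury only against control, 9 to 14 for Col1, 5 to 12 for VFLP (man) and 4 to 10 for VFLP (au) against control, 17 to 21 for right against left in control and 5 to 20 for the right-left difference. It gave 0 for the materials against injury only and between materials. Without control animal 2 the share of all genes called was 9.53%, 20.2%, 24.5% and 13.9% for injury only, Col1, VFLP (man) and VFLP (au) against control. Over all tested members, 200 of 3016 recomputed log2 fold changes (animals left out not counted) changed sign, 0 of them of called members, with up to 20 of 34 in a comparison (VFLP (man) against injury only with the muscle level). Each fold alone, batch handled the other way and the covariates were not run for the materials against control. Most of the called members lie in those comparisons, so their signs were not put to these settings. Among members named by the rule 2 changed sign, both from uncalled values for VFLP (man) against VFLP (au): CLDN14 to 1.40 with left folds alone (adjusted p = 0.8) and MARVELD3 to -0.068 with the muscle level (adjusted p = 0.95). The causes were not tested.

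Correlations between the deviations of same-numbered animals ran from -0.501 to 0.362. In no comparison did all 3 pass the limit set, so the main fits did not treat the numbers as pairs. With a replicate block 6 members passed for injury only against control, 12, 12 and 9 for Col1, VFLP (man) and VFLP (au) against control, and 0 in the 6 other comparisons; of the members named, CLDN8 in Col1 against control lost its call (1.28, adjusted p = 0.055). Without the right fold of control animal 2 the counts were 5, 11, 10 and 8 (against 20.3%, 30.4%, 35.3% and 25.2% of all genes). Calls were lost for CLDN11 in injury only (adjusted p = 0.051), CLDN8 in Col1 (0.075) and VFLP (man) (0.067) and CLDN3 in VFLP (man) (0.064). DESeq2 called 6 for injury only against control (against 21.6% of all genes). MARVELD2 in VFLP (au) against control had an adjusted p of 0.06, 0.072 and 0.051 with DESeq2 size factors, no filter and unstranded counts. CLDN14, CLDN2 and CLDN15 rest on few reads, and 3 animals a group limit what could be called.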
